A study of Mus musculus with 16 samples.

Results

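Platelets carry granules packed by their parent cell, the megakaryocyte, and 7 genes of granule content, granule assembly and granule release were described here in bone under the knee cartilage of mice: Pf4, Ppbp, Vwf, Mmrn1, Selp, Nbeal2 and Rab27b. The members were all array probes that carried 1 of these 7 gene names, which gave 14 probes of the 56605 non-control probes on the array. The probes were taken by name, with no measured value in the rule. The 7 genes themselves were chosen with earlier results of these data known. Of the 14 probes, 13 were detected well over their background in 4 or more of the 16 arrays and were tested, and each of the 7 genes had at least 1 of them.

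Alpha granules are the most numerous granules of platelets and hold chemokines, adhesive proteins and growth factors. Megakaryocytes in the marrow make or take up this cargo, package it and hand it on to the platelets they shed. When a platelet is activated at an injury, its granules fuse with the cell membrane, the cargo is released and granule membrane proteins appear on the cell surface. Among the cargo, Pf4 encodes platelet factor 4 and Ppbp encodes pro-platelet basic protein, both CXC chemokines. Vwf encodes von Willebrand factor, which tethers platelets to damaged vessel walls, and Mmrn1 encodes multimerin 1, a carrier of coagulation factor V in platelets. Selp encodes P-selectin, an adhesion receptor of the granule membrane that moves to the cell surface on activation. Nbeal2 encodes a large protein needed to form or keep alpha granules, whose loss causes gray platelet syndrome in humans. Rab27b encodes a small GTPase that acts in granule docking and secretion. Endothelial cells also make Vwf and Selp, and store both proteins in Weibel-Palade bodies.

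The arrays measured RNA of subchondral bone from wild-type male C57BL6 mice that were 10 to 12 weeks old at surgery. There were 4 groups of 4 arrays: destabilization of the medial meniscus (DMM) and sham operation at 1 week, and the same operations at 6 weeks. In DMM, a surgical model of osteoarthritis, the ligament that holds the medial meniscus to the tibia was cut, and in the sham operation it was exposed only. Surgery was done on both knees of every animal, so all joints, shams included, had been opened, and 1 joint of each mouse was used for RNA. The tibial bone had been decalcified in a stabilising solution with 10% EDTA, cut at 10 µm and dissected by laser from the medial plateau, with the sections of each joint pooled and 100 ng of RNA labelled. Mice at 6 weeks were also older than mice at 1 week, so time after surgery and age cannot be told apart. The signal at the 75th percentile of an array ranged from 332.3 to 883, with the lowest in replicate 2 of the 6-week sham group and 477.3 in the next, and the share of probes above background was between 65.21% and 79.52%. Markers of osteoblasts, osteoclasts, neutrophils and red cell precursors were measured in every group, and the mean level of chondrocyte markers varied widely between arrays within each group. These are bulk samples, so fewer megakaryocytes or platelets and less RNA per cell cannot be told apart.

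The sequences that bear on the members are the regions around the starts of Pf4, Ppbp and Nbeal2, and 3 probes. Pf4 and Ppbp are neighbours on chromosome 5, and their Pearson's r over the 16 arrays (0.92) was the highest of all pairs of members. Ppbp and Vwf, which lie on chromosomes 5 and 6, had 0.90. Nbeal2 on chromosome 9 followed neither Pf4 nor Ppbp. Whether the position of the genes bears on these relations was not tested. RefSeq's promoter table on GRCm38.p6 held 5 of the 7 members (Pf4, Ppbp, Mmrn1, Selp and Nbeal2), and those of Vwf and Rab27b were not used here. Each promoter runs from 250 bases before to 50 bases after the start of the gene. Capitals mark 2 motifs searched on both strands, GATAA, the core of sites bound by GATA factors, and AGGAAG, a core of sites bound by ETS factors. The motifs could share bases as spelled, and did not in the promoters printed here. The regions are chr5:90772185-90772484 on the plus strand for Pf4, chr5:90768268-90768567 on the plus strand for Ppbp and chr9:110654112-110654411 on the minus strand for Nbeal2.
Pf4 promoter: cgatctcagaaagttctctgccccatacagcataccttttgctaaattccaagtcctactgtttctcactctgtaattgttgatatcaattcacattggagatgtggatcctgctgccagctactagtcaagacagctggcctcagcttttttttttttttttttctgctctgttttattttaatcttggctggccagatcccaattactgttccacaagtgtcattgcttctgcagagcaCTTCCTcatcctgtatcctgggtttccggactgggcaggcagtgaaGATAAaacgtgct
Ppbp promoter: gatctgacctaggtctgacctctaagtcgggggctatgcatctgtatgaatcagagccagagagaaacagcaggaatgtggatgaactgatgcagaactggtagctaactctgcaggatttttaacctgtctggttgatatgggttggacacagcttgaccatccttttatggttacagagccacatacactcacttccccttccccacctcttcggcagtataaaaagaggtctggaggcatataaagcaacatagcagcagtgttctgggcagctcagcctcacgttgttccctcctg
Nbeal2 promoter: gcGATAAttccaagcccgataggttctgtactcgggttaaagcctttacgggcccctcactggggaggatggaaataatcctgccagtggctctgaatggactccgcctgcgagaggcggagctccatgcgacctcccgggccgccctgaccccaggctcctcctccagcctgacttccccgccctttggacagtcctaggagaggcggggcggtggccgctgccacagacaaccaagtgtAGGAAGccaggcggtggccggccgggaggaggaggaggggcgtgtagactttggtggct
The Pf4 promoter held 1 GATAA, 37 bases after the start, and 1 AGGAAG on the opposite strand, 9 bases before it. The Nbeal2 promoter held 1 GATAA, 248 bases before the start, and 1 AGGAAG, 9 bases before it. The Ppbp promoter held neither string of letters. Among the 5 members with a promoter, 3 held GATAA and 3 held AGGAAG, against 25.4% and 35.4% of all 32851 promoters of 300 bases in the table. A match here is a description of letters and no evidence of binding.

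The probes are 60 bases long and their positions are given on mm9, the assembly of the array's annotation. The Pf4 probe lies at chr5:91202275-91202334 and the Ppbp probe at chr5:91198970-91199029, both on the plus strand and 3246 bases apart. Vwf had 3 probes on chromosome 6, Mmrn1 had 2 on chromosome 6, Selp had 3 on chromosome 1, Nbeal2 had 1 on chromosome 9 and Rab27b had 3. Where a gene had several probes, the one with the highest mean over all arrays is called its lead probe. Printed next are the Nbeal2 probe and a pair of Selp probes, since those Selp probes did not give the same answer. They lie at chr1:166071558-166071617 (A_52_P57843), chr1:166074040-166074099 (A_66_P116477) and chr9:110527853-110527912 on the minus strand (A_55_P1958457), and each holds a forward reading frame with no stop codon.
Selp A_52_P57843: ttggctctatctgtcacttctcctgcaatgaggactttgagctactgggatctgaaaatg
Selp A_66_P116477: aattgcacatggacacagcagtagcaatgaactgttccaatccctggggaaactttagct
Nbeal2 A_55_P1958457: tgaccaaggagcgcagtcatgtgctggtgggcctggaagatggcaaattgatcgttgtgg

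All levels below are log2 intensities scaled to the 75th percentile of each array by subtraction, called log2 levels. Levels of different probes are not comparable. Differences are log2 differences from limma with their standard errors (SE), and adjusted p-values are Benjamini-Hochberg values over all 43268 tested probes, with a threshold of 0.05. The lead probe of every member was well above background on all 16 arrays.

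At 1 week after surgery, all 7 genes had a lower mean in DMM joints than in sham joints, and 0 of them passed the threshold. The median log2 difference over the 7 lead probes was -0.49, and they ranged from -0.64 to -0.12, while the median over all tested probes was 0.00. In this comparison 0 of 43268 probes passed the threshold (0%), and 425 (0.982%) had an unadjusted p under 0.05 in limma. A difference below 0 was found for 49.6% of all tested probes.

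Pf4 had log2 levels of 4.90, 4.80, 6.38 and 5.51 in the 4 DMM joints at 1 week, against 5.97, 5.52, 6.30 and 6.07 in the 4 sham joints. Replicates 1, 2 and 4 of the DMM group were below every sham joint and replicate 3 was above every one, so the groups overlapped. The Pf4 mean was 1.48-fold lower in DMM joints (log2 difference -0.57 ± 0.38 SE, 95% interval -1.38 to 0.24, adjusted p = 1.0 in limma). Ppbp had log2 levels of 4.42, 4.51, 5.82 and 4.63 in DMM joints, against 5.27, 4.89, 5.69 and 5.49 in sham joints. The same 3 DMM joints were below all sham joints and the same replicate 3 was above all of them. On the log2 scale Ppbp differed by -0.49 ± 0.31 (SE), with a 95% interval of -1.15 to 0.16.

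Vwf, at its lead probe, had log2 levels of 2.54, 2.55, 3.80 and 2.73 in DMM joints at 1 week, against 3.35, 2.89, 3.71 and 3.53 in sham joints. This adhesive protein's transcript showed the same order, with DMM replicates 1, 2 and 4 below all sham joints and replicate 3 above all. Its log2 difference was -0.46 ± 0.28 (SE, 95% interval -1.06 to 0.13). Mmrn1, the factor V carrier, had log2 levels of 0.41, 0.47, 1.48 and 0.45 in DMM joints, against 1.43, 0.84, 1.59 and 1.45 in sham joints. Here replicate 3 of the DMM group lay within the sham range and the other 3 DMM joints lay below it. Its log2 difference was -0.63 ± 0.30 (SE), with an unadjusted p of 0.0526 and an adjusted p of 1.0 in limma.

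The granule membrane receptor Selp had log2 levels of -0.50, -0.16, -0.15 and -0.48 in DMM joints at 1 week, against -0.21, -0.33, -0.07 and -0.21 in sham joints. Only replicates 1 and 4 of the DMM group were below all sham joints. Its log2 difference, the smallest of the 7, was -0.12 ± 0.15 (SE, 95% interval -0.43 to 0.19). Nbeal2, the granule assembly gene, had log2 levels of 0.33, 1.32, 1.35 and 1.12 in DMM joints, against 0.97, 1.29, 1.57 and 1.41 in sham joints. A single DMM joint, replicate 1, was below the sham range, and the other 3 lay within it. The log2 difference of Nbeal2 was -0.28 ± 0.24 (SE) on all arrays and -0.05 without DMM replicate 1.

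Rab27b, the docking GTPase, had log2 levels of -0.20, -0.74, 0.57 and -0.23 in DMM joints at 1 week, against 0.70, 0.00, 0.71 and 0.56 in sham joints. Replicates 1, 2 and 4 of the DMM group were again below every sham joint and replicate 3 lay within the sham range. The log2 difference was -0.64 ± 0.30 (SE, 95% interval -1.29 to 0.00, unadjusted p = 0.0512, adjusted p = 1.0 in limma), the lowest unadjusted p among the members. For 5 of the 7 genes, then, 3 of 4 DMM joints were below all sham joints and the remaining joint was not. The 2 groups overlapped for all 13 tested probes of the members, whereas they did not overlap for 1.24% of all tested probes.

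**Figure D1:**
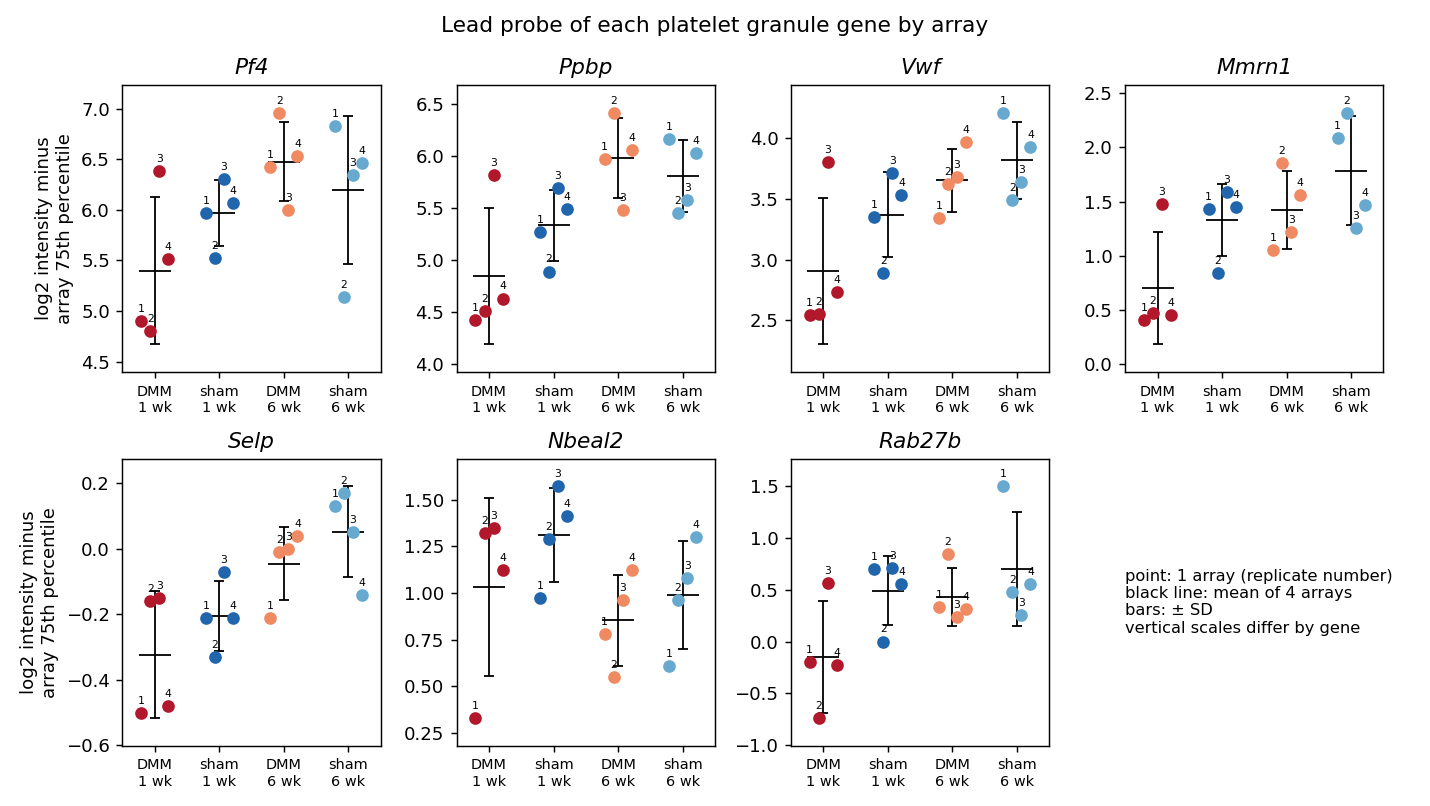
Log2 levels (vertical axis, log2 intensity minus the array's 75th percentile) of the lead probe of each of the 7 genes on 16 arrays in 4 groups, with each array as a numbered point, the mean of 4 arrays as a black line and ± SD as bars. At 1 week, replicates 1, 2 and 4 of the DMM group were below all sham joints for Pf4, Ppbp, Vwf, Mmrn1 and Rab27b, and replicate 3 was not.

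Leaving out DMM replicate 3 at 1 week gave a median log2 difference of -0.82 over the members, against -0.49 with all arrays, and still 0 probes in all passed the threshold. That fit gave -0.90 for Pf4, -0.82 for Ppbp and -0.76 for Vwf. Without DMM replicate 2, Pf4 was at -0.37, and without DMM replicate 1 Selp was at -0.06 and Nbeal2 at -0.05. Each slide held 2 arrays of each group. The DMM mean was below the sham mean for all 7 lead probes on slide 1 alone and on slide 2 alone. The slides differed most for Pf4, with -0.89 on slide 1 and -0.24 on slide 2, and least for Nbeal2, with -0.31 and -0.26. The second and weaker probes of the members mostly had the same sign: 11 of the 13 tested probes were lower in DMM joints at 1 week. The exceptions were Selp A_66_P116477, with a log2 difference of 0.21 ± 0.36 (SE), and Rab27b A_55_P2714065, with 0.03 ± 0.35 (SE). This Rab27b probe was well above background on 4 of 16 arrays only.

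At 6 weeks after surgery the members did not share a direction, and 0 of 7 passed the threshold. The lead probes of 5 genes had a lower mean in DMM joints and those of Pf4 and Ppbp a higher one. Their median log2 difference was -0.14, within a range of -0.36 to 0.29, against -0.02 over all tested probes, of which 53.6% lay below 0. The median was -0.04 without sham replicate 1, -0.23 without DMM replicate 4 and 0.00 with array weights. Again 0 of 43268 probes passed (0%), and 387 (0.894%) had an unadjusted p under 0.05 in limma.

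Pf4 had log2 levels of 6.42, 6.96, 6.00 and 6.53 in DMM joints at 6 weeks, against 6.83, 5.14, 6.34 and 6.46 in sham joints. The groups overlapped, and sham replicate 2 lay more than 1 unit below the other sham joints. The log2 difference of this chemokine was 0.29 ± 0.38 (SE), and it was -0.06 without sham replicate 2. Ppbp had log2 levels of 5.97, 6.42, 5.48 and 6.06 in DMM joints, against 6.17, 5.45, 5.58 and 6.03 in sham joints. The ranges overlapped for most of their length, with a log2 difference of 0.17 ± 0.31 (SE).

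Vwf had log2 levels of 3.34, 3.62, 3.68 and 3.97 in DMM joints at 6 weeks, against 4.21, 3.49, 3.64 and 3.93 in sham joints. Sham replicate 1 was the highest of all 16 arrays, and the log2 difference was -0.17 ± 0.28 (SE). Mmrn1 had log2 levels of 1.05, 1.86, 1.22 and 1.56 in DMM joints, against 2.09, 2.32, 1.26 and 1.47 in sham joints. DMM replicates 1 and 3 were below all sham joints, and sham replicates 1 and 2 were above all DMM joints. The log2 difference of Mmrn1 was -0.36 ± 0.30 (SE, adjusted p = 0.999 in limma), with -0.75 on slide 1 and 0.02 on slide 2.

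Selp had log2 levels of -0.21, -0.01, 0.00 and 0.04 in DMM joints at 6 weeks, against 0.13, 0.17, 0.05 and -0.14 in sham joints. All but 1 sham joint were above every DMM joint, yet the log2 difference was only -0.10 ± 0.15 (SE). Nbeal2 had log2 levels of 0.78, 0.55, 0.96 and 1.12 in DMM joints, against 0.61, 0.96, 1.08 and 1.30 in sham joints, a log2 difference of -0.14 ± 0.24 (SE). Rab27b had log2 levels of 0.33, 0.85, 0.24 and 0.31 in DMM joints, against 1.50, 0.48, 0.26 and 0.56 in sham joints. Its highest level on any array was that of sham replicate 1, and the log2 difference was -0.27 ± 0.30 (SE), and 0.00 without that joint. On leaving out 1 array at 6 weeks, Ppbp ranged from 0.03 to 0.34, Vwf from -0.27 to -0.04, Mmrn1 from -0.54 to -0.18, Selp from -0.16 to -0.04 and Nbeal2 from -0.26 to -0.03. The groups overlapped for all 13 tested probes of the members at 6 weeks, and they did not overlap for 0.504% of all tested probes.

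**Figure D2:**
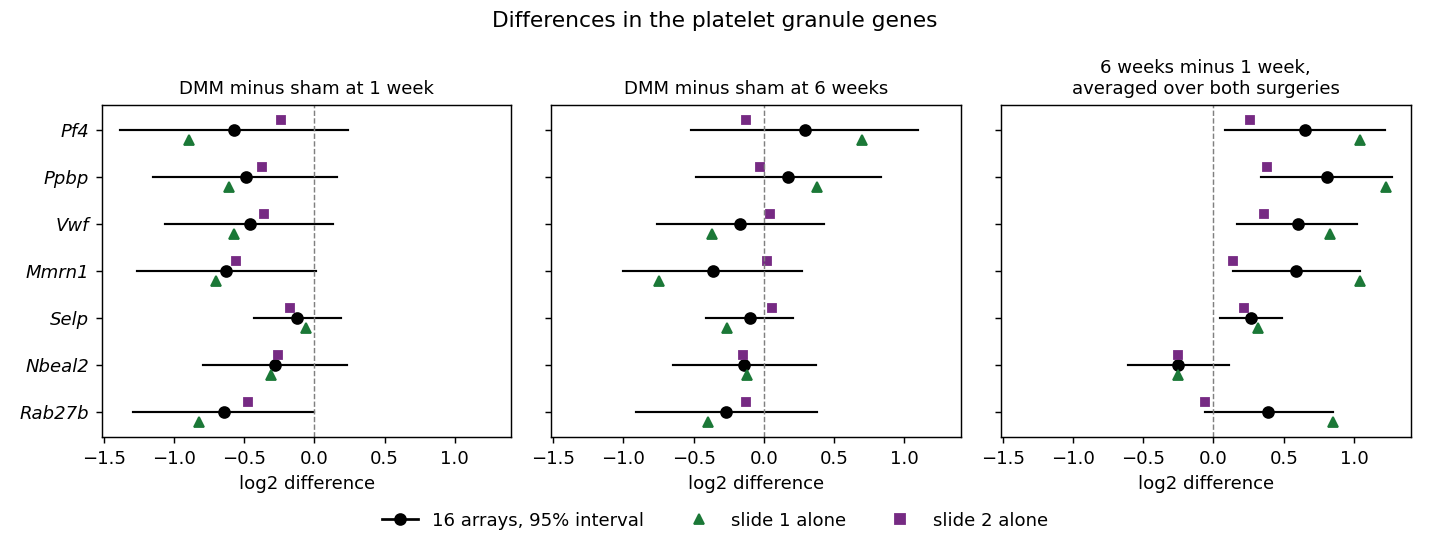
Log2 differences (horizontal axis) of the 7 lead probes for DMM minus sham at 1 week, DMM minus sham at 6 weeks, and 6 weeks minus 1 week over both operations, with black points and bars for 16 arrays and their 95% interval, triangles for slide 1 alone and squares for slide 2 alone. At 1 week every point and both slides lie below 0, at 6 weeks the points spread on both sides of 0, and over time 6 of 7 points lie above 0.

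The difference between the DMM effects at the 2 times was tested as an interaction. All 7 lead probes had a higher DMM minus sham difference at 6 weeks than at 1 week, with a median interaction of 0.30 on the log2 scale and a range of 0.02 to 0.86. That median was 0.18 without DMM replicate 1 and 0.60 without DMM replicate 3 of the 1-week group. The background share was 48.8% of all tested probes above 0. Of the 13 tested probes of the members, 9 were above 0 and 4 below. The lowest were Rab27b A_55_P2714065 (-0.31 ± 0.50 SE) and Selp A_66_P116477 (-0.17 ± 0.51 SE). The lead Selp probe had 0.02 ± 0.21 (SE). None of the 7 passed the threshold: the largest interaction, that of Pf4, was 0.86 ± 0.54 (SE, 95% interval -0.29 to 2.00, adjusted p = 1.0 in limma). It was 1.60 on slide 1, 0.11 on slide 2 and 0.51 without sham replicate 2 at 6 weeks. Over all tested probes, 0 of 43268 passed (0%), and 312 (0.721%) had an unadjusted p under 0.05. A difference in the DMM effect between 1 and 6 weeks was therefore not detectable with these arrays.

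Averaged over both times, all 7 genes had a lower mean in DMM than in sham joints, with a median log2 difference of -0.21 and 52.3% of all tested probes below 0. That median was -0.09 without DMM replicate 1 and -0.32 without DMM replicate 3 of the 1-week group. Mmrn1 had the largest difference, -0.49 ± 0.21 (SE, unadjusted p = 0.0327, adjusted p = 1.0 in limma), and 6 of its 8 DMM joints lay below the sham mean. The second Vwf probe, A_55_P2718900, had a log2 difference of -0.39 ± 0.17 (SE, unadjusted p = 0.041 in limma), with all 8 DMM joints below the sham mean. The other Vwf probes did not show this. The lead probe had -0.32 ± 0.20 (SE), with 4 of 8 DMM joints below the sham mean. A_55_P2169659 had -0.04 ± 0.33 (SE), with 3 of 8 below it. The average rests on the same arrays as the comparisons at 1 and 6 weeks. Again 0 of 43268 probes passed the threshold (0%), and 468 (1.08%) had an unadjusted p under 0.05 in limma.

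Over both operations, 6 of the 7 genes had a higher mean at 6 weeks than at 1 week, and Nbeal2 had a lower one. By operation, the mean log2 level over the 7 lead probes was 2.06 at 1 week and 2.68 at 6 weeks in DMM joints. In sham joints it was 2.52 and 2.76. For Pf4 the means were 5.40 and 6.48 in DMM joints, against 5.97 and 6.19 in sham joints. The low DMM joints at 1 week thus enter both this comparison and that of DMM with sham at 1 week. The median log2 difference over the members was 0.59, against 0.01 over all tested probes, of which 51.1% lay above 0. Of the 43268 probes, 362 (0.837%) passed the threshold, 241 of them higher at 6 weeks (0.557%), and 0 of the 7 members did. By unadjusted p under 0.05 in limma, 5 of the 7 genes counted, against 16.5% of all tested probes. The 2 times overlapped for all 13 tested probes of the members, and they did not overlap for 0.643% of all tested probes.

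Ppbp came nearest to the threshold. Its log2 levels at 6 weeks ranged from 5.45 to 6.42 with a median of 6.00 over 8 joints, and at 1 week from 4.42 to 5.82 with a median of 5.08. Of these, 5 joints at 6 weeks were above every joint at 1 week and all 8 were above the 1-week mean. The Ppbp mean was 1.75-fold higher at 6 weeks (log2 difference 0.81 ± 0.22 SE, adjusted p = 0.0803 in limma), with 1.23 on slide 1 and 0.38 on slide 2. Pf4 had a lowest, median and highest log2 level of 5.14, 6.44 and 6.96 at 6 weeks, against 4.80, 5.74 and 6.38 at 1 week. The log2 difference of Pf4 was 0.65 ± 0.27 (SE, adjusted p = 0.232 in limma), and 5 joints at 6 weeks were above all joints at 1 week.

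For Vwf the lowest, median and highest log2 level were 3.34, 3.66 and 4.21 at 6 weeks, against 2.54, 3.12 and 3.80 at 1 week. All 8 joints at 6 weeks were above the 1-week mean, with a log2 difference of 0.60 ± 0.20 (SE, adjusted p = 0.138 in limma). Its other probes had the same sign: 0.48 ± 0.17 (SE) for A_55_P2718900 and 1.04 ± 0.33 (SE) for A_55_P2169659, whose adjusted p was 0.117. Mmrn1 had a lowest, median and highest log2 level of 1.05, 1.52 and 2.32 at 6 weeks, against 0.41, 1.14 and 1.59 at 1 week. The log2 difference of Mmrn1 was 0.59 ± 0.21 (SE, adjusted p = 0.165 in limma), and it was 1.04 on slide 1 and 0.14 on slide 2.

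Selp had a lowest, median and highest log2 level of -0.21, 0.02 and 0.17 at 6 weeks, against -0.50, -0.21 and -0.07 at 1 week. The difference was small but 6 joints at 6 weeks were above all joints at 1 week (log2 difference 0.27 ± 0.10 SE, adjusted p = 0.196 in limma). The Selp probes disagreed over time: the printed probe A_52_P57843 had a log2 difference of 0.37 ± 0.14 (SE), and the printed probe A_66_P116477 had -0.28 ± 0.25 (SE). Rab27b had a log2 difference of 0.39 ± 0.21 (SE, adjusted p = 0.39 in limma), with 0.85 on slide 1 and -0.06 on slide 2. Nbeal2 had a lowest, median and highest log2 level of 0.55, 0.96 and 1.30 at 6 weeks, against 0.33, 1.30 and 1.57 at 1 week. Its log2 difference was -0.25 ± 0.17 (SE, adjusted p = 0.515 in limma), with -0.25 on both slides.

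Some calls over time depended on single arrays and on how arrays were weighted. Without DMM replicate 3 of the 1-week group, Ppbp (log2 difference 0.97, adjusted p = 0.0171) and Vwf (0.75, adjusted p = 0.0272) were past the threshold. Without sham replicate 2 of the 6-week group, the array with the lowest signal, Ppbp was past it as well (0.87, adjusted p = 0.0395). Limma's array weights gave adjusted p-values of 0.0233 for Pf4, 0.0171 for Ppbp, 0.0354 for Vwf and 0.0142 for Selp, in a fit that called 8456 probes. With slide as a block 916 probes were called and 0 members.

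Apart from Nbeal2, the members mostly varied together across arrays. A mean over the 7 genes of each array's deviation from the gene's own mean was -0.81, -0.68, 0.25 and -0.54 for the 4 DMM joints at 1 week, against -0.01, -0.35, 0.28 and 0.11 for the sham joints. At 6 weeks these means were 0.02, 0.39, 0.01 and 0.29 in DMM joints, against 0.57, 0.07, 0.09 and 0.30 in sham joints. The 3 lowest values of all 16 arrays were thus DMM joints at 1 week, and the highest was a sham joint at 6 weeks.

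**Figure D3:**
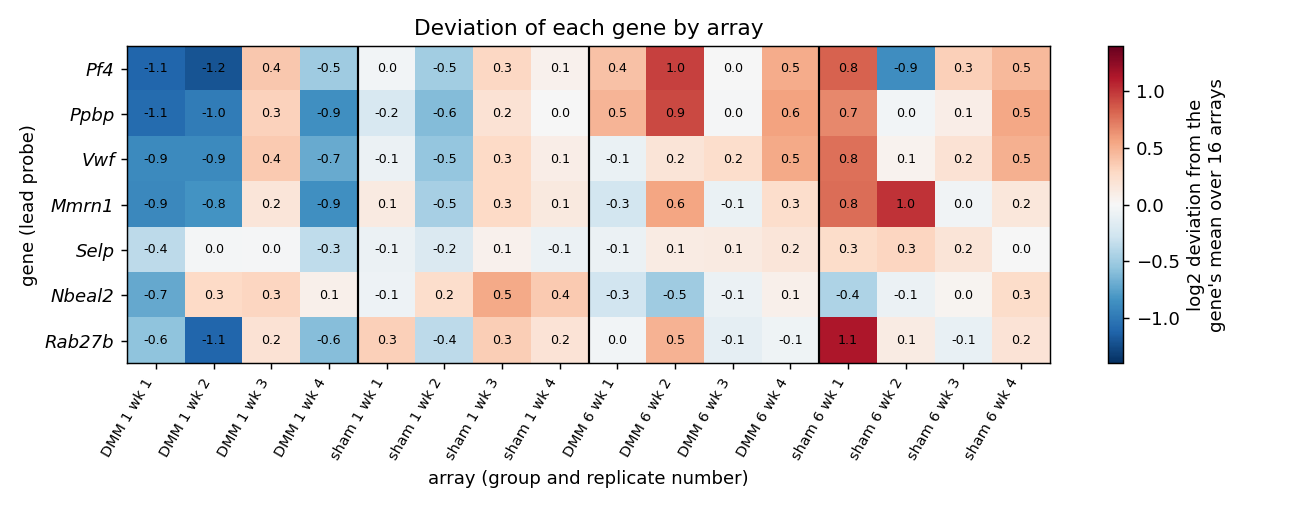
Deviation of each gene's lead probe from its own mean over 16 arrays (colour and printed number, log2 units), with genes in rows and arrays in columns by group and replicate. DMM replicates 1, 2 and 4 at 1 week are below the mean for most genes, and the Nbeal2 row does not follow the others.

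The 21 pairs of lead probes were correlated over the 16 arrays, with permutation p-values (100000 draws, two-sided) adjusted over the 21 pairs by Benjamini-Hochberg. Pearson's r was above 0 in 17 pairs and passed an adjusted p of 0.05 in 14, and Spearman's rho in 13. Arrays were shuffled across groups, so differences between groups enter these p-values. Over the 14 pairs, r on deviations from group means ran from 0.293 (Rab27b and Selp) to 0.885 (Pf4 and Ppbp). It was 0.379 for Pf4 and Mmrn1, and 0.356 for Ppbp and Selp. Pf4 and Ppbp had r = 0.92 and rho = 0.98, each with a permutation p of 1e-05, the smallest these draws can give (adjusted 0.000105 and 0.00021). Without the 2 arrays farthest from the Pf4 median r was 0.85, on deviations from group means it was 0.885, and within the slides it was 0.92 and 0.97. Ppbp and Vwf had r = 0.90 and rho = 0.81 (permutation p = 1e-05 and 0.00023, adjusted 0.000105 and 0.00168), and r = 0.82 without the 2 arrays farthest from the Ppbp median.

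Mmrn1 and Rab27b had r = 0.84 and rho = 0.81 (permutation p = 8e-05 and 0.00024, adjusted 0.000315 and 0.00168), and r = 0.80 without the 2 farthest arrays. The relation of Pf4 with Mmrn1 was looser, with r = 0.57 and rho = 0.59 (permutation p = 0.0201 and 0.0176, adjusted 0.0325 and 0.0308). Its size depended on a few arrays, in both directions: r was 0.28 without the 2 arrays farthest from the Pf4 median. Without sham replicate 2 at 6 weeks it was 0.91, and that array was among the lowest for Pf4 and the highest for Mmrn1.

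Over the 16 arrays Nbeal2 stood apart, with r between -0.16 and 0.10 against the other 6 genes and 0 of 6 pairs past the adjusted threshold. The slides differed: on slide 1 and slide 2 alone, r with Nbeal2 was -0.44 and 0.74 for Rab27b and -0.39 and 0.26 for Pf4. For Selp it was 0.04 and -0.16. On deviations from group means, r with Nbeal2 ran from -0.261 for Rab27b to 0.342 for Vwf. With Pf4 on all 16 arrays, the r of Nbeal2 was -0.03 and its rho -0.11 (permutation p = 0.916 and 0.696, adjusted 0.962 and 0.812). Arrays share operation, time and slide, and all values share the scaling of their array.

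**Figure D4:**
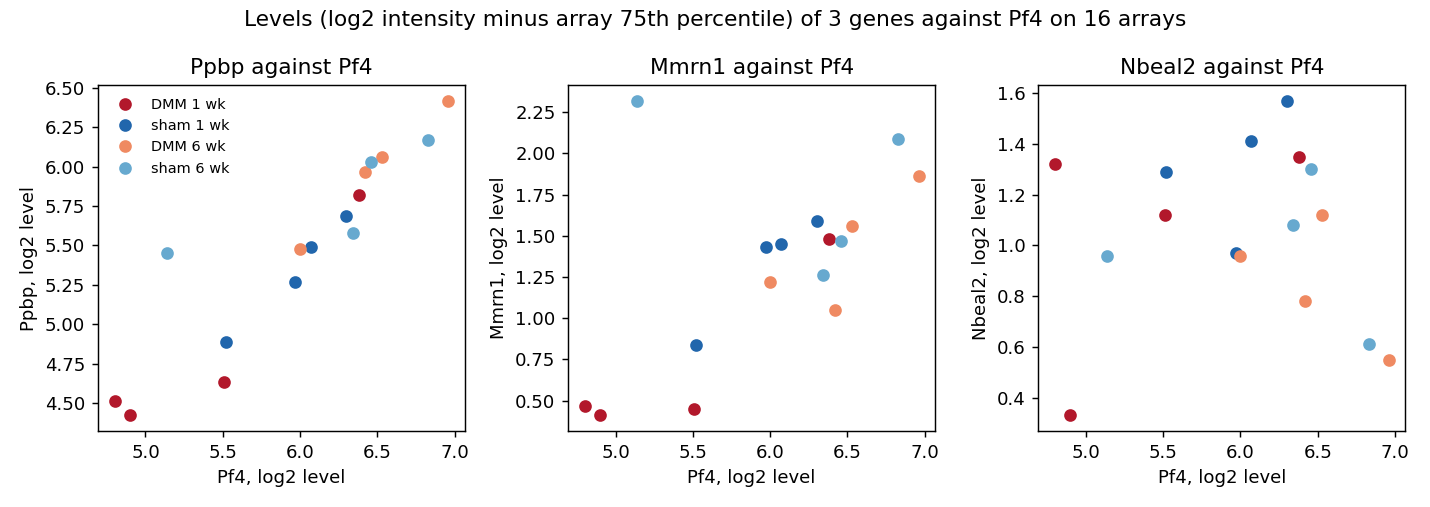
Log2 levels of Ppbp, Mmrn1 and Nbeal2 (vertical axes) against those of Pf4 (horizontal axes) on the 16 arrays, coloured by group. Ppbp follows Pf4 closely (r = 0.92), Mmrn1 does so except in 1 sham joint at 6 weeks (r = 0.57), and Nbeal2 does not (r = -0.03).

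Probes of a gene were compared in the same way, as a description over 16 arrays. The 2 brighter probes of Rab27b, a gene on chromosome 18, had r = 0.90, and A_55_P2714065, near background, had -0.51 and -0.44 against them. The lead Vwf probe had r = 0.80 with A_55_P2169659 and 0.59 with A_55_P2718900. The lead Selp probe had r = 0.80 with A_52_P57843 and -0.03 with A_66_P116477. The second Mmrn1 probe, A_52_P126132, was well above background on 1 of 16 arrays, a sham joint at 6 weeks, and was not tested.

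Among 19747 genes with a current symbol, those most like Pf4 over the 16 arrays were Prkcq, Gp6, Atp8a1, St3gal5, Tbxas1, Gp1ba, Serpinb2 and Dtl, with r between 0.97 and 0.94. Gp6 and Gp1ba encode platelet receptors for collagen and for von Willebrand factor, and Tbxas1 encodes thromboxane synthase. The genes most like the mean of the 7 members were Gcsam, Treml1, Pls1, Gnaz, Kcnj5, F2rl2, Alox12 and Ly6g6f, with r between 0.97 and 0.95. Treml1 encodes a receptor of platelet granule membranes and Alox12 encodes platelet 12-lipoxygenase. The median r with Pf4 was 0.83 over 28 genes of megakaryocyte and platelet surface and identity, 0.85 over 9 erythroid genes, 0.77 over 9 mast cell and basophil genes, -0.31 over 20 endothelial genes and -0.10 over all genes. With the mean of the 7 members the medians were 0.80, 0.65, 0.61, -0.39 and -0.03 in the same order. For 13 other genes of granule cargo the median r was 0.16 with Pf4 and 0.04 with the mean of the members. For 32 genes of granule biogenesis and secretion it was 0.23 and 0.01.

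Other platelet genes were read in 3 further lists, each through its lead probe. The 13 other cargo genes had a median log2 difference of -0.16 for DMM minus sham at 1 week, with 10 lower, 3 higher and 0 called. The smallest unadjusted p-values were those of F5, coagulation factor V, at -0.43 ± 0.29 (SE), of Clu at -0.21 ± 0.17 and of Timp3 at -0.21 ± 0.20. Leaving out 1 DMM joint moved F5 between -0.65 and -0.18, Clu to as low as -0.32, and Timp3 between -0.36 and -0.08. At 6 weeks the median was -0.09, with 7 lower and 6 higher, and the smallest unadjusted p-values were those of Timp3 (-0.30 ± 0.20), Gas6 (-0.36 ± 0.26) and Pdgfb (-0.42 ± 0.37). Without sham replicate 2, Gas6 was at -0.19 and Pdgfb at -0.07, and without DMM replicate 1 Timp3 was at -0.16. Over time the median was -0.01, with 7 lower at 6 weeks, 6 higher and 0 called. Pdgfa, a growth factor chain also made by other cells, had -0.76 ± 0.18 (SE, adjusted p = 0.0576 in limma), Serpine2 -0.50 ± 0.15 and Ecm1 -0.61 ± 0.18. Fitted with a slide term, Pdgfa had -0.76 (adjusted p = 0.0453 in limma), and it also passed in 3 other settings and in 3 of 16 fits that left out 1 array.

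The 32 genes of granule biogenesis and secretion had a median log2 difference of -0.10 for DMM minus sham at 1 week, with 23 lower, 9 higher and 0 called. The smallest unadjusted p-values were those of Slc35d3, a gene needed for dense granules in mice, at -0.65 ± 0.37 (SE), of Unc13d, a priming factor, at -0.36 ± 0.21 and of the SNARE gene Stx11 at -0.38 ± 0.27. Without DMM replicate 1, Unc13d was at -0.17 and Stx11 at -0.21. At 6 weeks 23 were higher, 9 lower and 0 called, with Vamp8 at 0.56 ± 0.39, Bloc1s6 at 0.29 ± 0.23 and Vamp7 at 0.38 ± 0.32. These 3 values rested on sham replicate 2, the low-signal array, and without it they were 0.05, 0.04 and 0.05. Over time 24 of 32 had a lower mean at 6 weeks and 0 were called, with Snap23 at -0.82 ± 0.25, Vps18 at -0.34 ± 0.12 and Lyst at -0.46 ± 0.16. The list's mean level at 6 weeks was 1.11 in sham replicate 2, against 1.62 to 1.74 in the other sham joints and 1.52 to 1.77 in DMM joints. At 1 week it ranged from 1.53 to 1.80 in DMM joints and from 1.53 to 1.97 in sham joints. Nbeal2 had the same sign as most of this list over time, and Rab27b had the opposite one.

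Of the 28 genes of megakaryocyte and platelet surface and identity, 26 were lower on average in DMM joints at 1 week, with a median log2 difference of -0.38 and 0 called, and Treml1 (-0.68 ± 0.30), Gp5 (-0.75 ± 0.34) and F2rl2 (-0.71 ± 0.33, SE) had the smallest unadjusted p-values. Treml1 was at -1.04 without DMM replicate 3. At 6 weeks 17 were higher and 11 lower, with a median of 0.11 and 0 called, with Itgb3 at -0.35 ± 0.26, and at -0.12 without sham replicate 2. P2ry12 had 0.23 ± 0.27, and leaving out 1 array gave 0.11 to 0.39. Over time 25 of 28 were higher at 6 weeks, with a median of 0.68. Gfi1b, a transcription factor of red cell and megakaryocyte precursors, was the 1 gene of this list past the threshold over time. It was higher at 6 weeks (1.04 ± 0.22 SE, adjusted p = 0.0427 in limma), and it stayed past the threshold in 4 of 16 fits that left out 1 array.

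**Figure D5:**
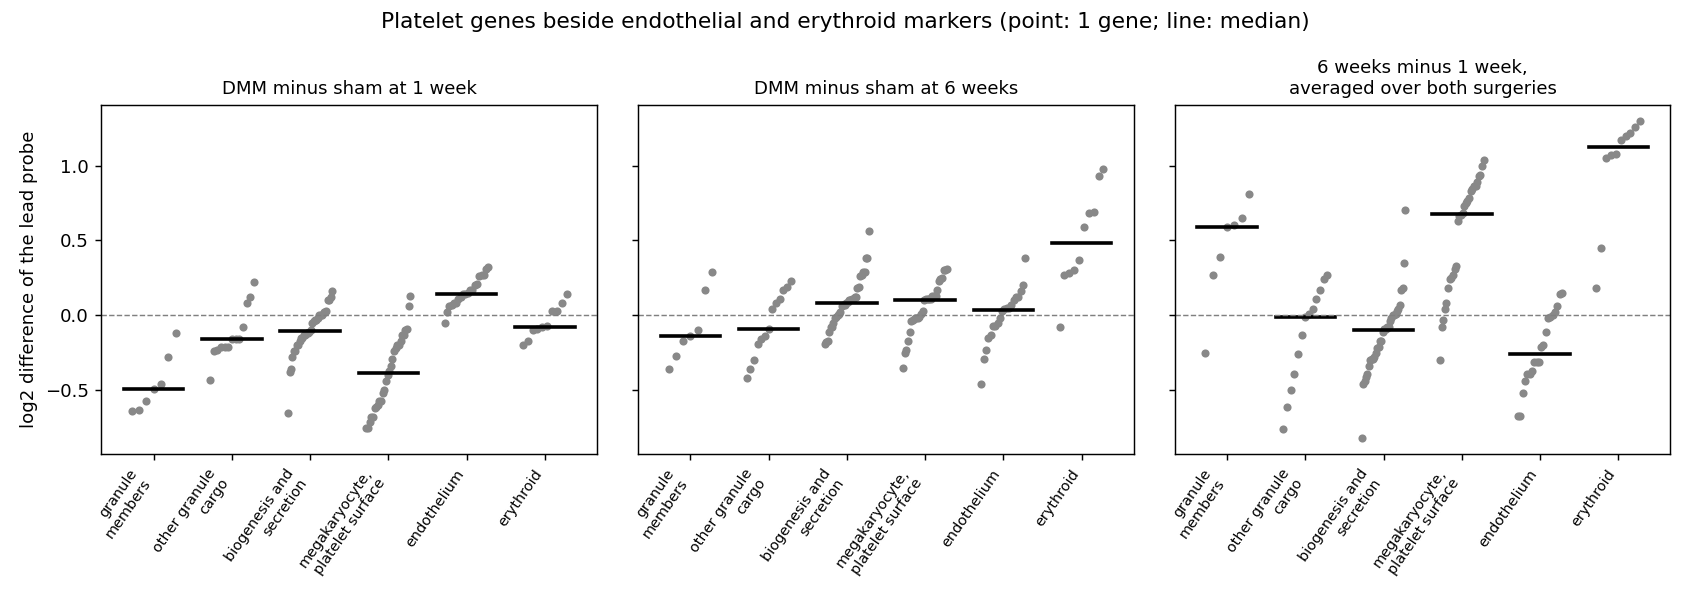
Log2 differences (vertical axis) of the genes of 6 lists for DMM minus sham at 1 week, DMM minus sham at 6 weeks and 6 weeks minus 1 week, with each gene's lead probe as a point and the list's median as a line. The members and the platelet surface list lie below 0 at 1 week (medians -0.49 and -0.38) and above 0 over time (0.59 and 0.68), and the erythroid list lies highest over time (1.12).

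Markers of other cell types moved beside the members in some comparisons. Among endothelial genes, the other source of Vwf and Selp, 19 of 20 had a higher mean in DMM joints at 1 week (median 0.15), and 16 of 20 a lower mean at 6 weeks than at 1 week (median -0.26). Their mean log2 level over the list was 1.52, 0.80, 0.79 and 0.94 in DMM joints at 1 week, against 0.91, 0.98, 0.71 and 0.82 in sham joints. DMM replicate 1 alone lay above the sham range. All 20 were measured, and 0 were called. Lists of other cell types were set beside the members over time. Of the erythroid genes, 10 of 10 measured had a higher mean at 6 weeks, with a median log2 difference of 1.12. Among them Alas2, the first enzyme of haem synthesis in red cell precursors, rose by 1.30 ± 0.27 (SE, adjusted p = 0.0439 in limma), and it stayed past the threshold in 4 of 16 fits that left out 1 array. The mean erythroid level ranged from 5.16 to 5.82 in DMM joints and from 3.93 to 5.53 in sham joints at 6 weeks, and from 3.14 to 5.15 in DMM joints and from 3.64 to 4.91 in sham joints at 1 week. A higher mean at 6 weeks was also found for 7 of 9 chondrocyte genes (median 0.82), 6 of 6 measured skeletal muscle genes (0.66), 7 of 7 adipocyte genes (0.64) and 8 of 9 measured lymphoid genes (0.40). The mean chondrocyte level at 6 weeks was 2.05 in sham replicate 2, against -0.02 to 0.43 in the other sham joints. It ranged from -1.59 to 1.29 in DMM joints. For skeletal muscle it was -1.08 in sham replicate 3, against -3.99 to -3.32 in the other sham joints and -3.46 to -1.57 in DMM joints. The adipocyte list differed by operation. Its mean level was 0.46 at 1 week and 1.86 at 6 weeks in sham joints, but 1.46 and 1.30 in DMM joints. Its median interaction was -1.51, with 0 genes called. A lower mean at 6 weeks was found for 7 of 7 osteoclast genes (median -0.80). Past the threshold were 1 gene each in 3 of these lists, each in 4 of 16 fits that left out 1 array. Chad, which encodes the cartilage matrix protein chondroadherin, rose by a log2 difference of 1.68 ± 0.36 (SE, adjusted p = 0.0445 in limma). Mylpf, a fast muscle myosin light chain, rose by 1.16 ± 0.26 (SE, adjusted p = 0.0484 in limma). Mmp9, a matrix metalloproteinase of osteoclasts and neutrophils, had -0.80 ± 0.12 (SE, adjusted p = 0.0342 in limma).

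Mast cell and basophil genes had a lower mean in DMM joints at 1 week for 9 of 9 measured genes (median log2 difference -0.28, 0 called), and 1 of the 10 listed, Tpsab1, was well above background on 0 arrays. Their mean level ranged from -0.36 to 0.70 in DMM joints at 1 week, against 0.02 to 0.61 in sham joints. At 1 week 10 of 12 neutrophil genes (median -0.19) and 8 of 10 monocyte and macrophage genes (-0.08) were also lower in DMM joints. Erythroid genes were split, with 6 lower and 4 higher. Higher in DMM joints were 9 of 11 osteoblast and osteocyte genes (0.32) and 6 of 9 measured lymphoid genes (0.24). In these lists 0 genes were called at 1 week. Adipocyte genes had a higher mean in DMM joints at 1 week for 6 of 7 genes (median 0.76, 0 called), with a mean level of 0.69 to 2.53 in DMM joints, against -0.24 to 0.83 in sham joints. The part of these cell types in the members' differences was not tested.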

How the data were processed

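RNA was measured on 16 arrays with 1 colour. Per the file headers, Feature Extraction 10.7.3.1 made the deposited intensity of each spot, background-corrected, and its call of well above background. A further table that the authors deposited gives values for 50815 probes, read as log2 with its normalization not given in the sources used here; per the submitters' processing notes limma 3.20.9 was used. That table served as an alternative (r with the scanner values 0.9892 to 0.9943).

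From the scanner files, spots with outlier flags were set aside, spots of a probe averaged, and log2 intensities minus the array's 75th percentile computed. Probes well above background on at least 4 of 16 arrays (43268) entered limma 3.58.1 (lmFit, eBayes) with 1 mean per group over all arrays, and p-values were adjusted by Benjamini-Hochberg. The fit was tested on simulated data. Groups came from the labels. Joints were from separate mice, and the number of arrays limits the precision. The members and gene lists were chosen with earlier results of these data known. Named genes were all members, and from the other lists those past the threshold, or otherwise up to 3 with the smallest unadjusted p, given here for the 3 platelet lists and, over time, the erythroid, osteoclast, chondrocyte and skeletal muscle lists. Of the genes this rule named, 1 is not reported here. Probes were named by accession (32994), current symbol (10224), older symbol (520) or the file's name (12867).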

Additional observations from a re-analysis of the deposited data

Results flagged for a closer look

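Each of the 13 tested probes was examined in each of the 4 groups, 52 sets of 4 arrays in all, for 1 array far from the other 3. Such an array was found in 6 sets, and chance alone would give about 1 in 20. In the DMM group at 1 week, replicate 3 stood above the other joints for 3 genes. Its log2 level of Ppbp was 5.82, against 4.42 to 4.63 in the other 3 joints. For Vwf, at the lead probe, it was 3.80, against 2.54 to 2.73. For Mmrn1 it was 1.48, against 0.41 to 0.47.

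At 6 weeks, DMM replicate 2 had a log2 level of Rab27b of 0.85 at the lead probe, against 0.24 to 0.33 in the other DMM joints. DMM replicate 3 had -1.54 at the Selp probe A_52_P57843, against -1.32 to -1.29. Sham replicate 2, the array with the lowest 75th percentile, had -2.61 at the Vwf probe A_55_P2169659, against -1.16 to -0.89 in the other sham joints.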

How the results depend on the processing

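No paired analysis was possible because replicate numbers here only follow record order. In DMM minus sham at 1 week, at 6 weeks, averaged, and in their interaction, 0 probes were past the threshold under every alternative run. At 1 week all 203 alternative values of the 7 members kept a sign below 0. Leaving out 1 array gave a member median of -0.82 (without DMM replicate 3) to -0.35. Over time, the 362 probes became 0 with the array median, with no filter on dim probes and within either slide, 643 with normexp, 714 with probes detected on all 16 arrays, 916 with slide as a block and 8456 with array weights. Leaving out 1 array gave 0 to 2425, with 2425 without sham replicate 2 and 874 without DMM replicate 3 at 6 weeks, 1096 without DMM replicate 3 at 1 week, and at most 11 in the other fits except 472 without sham replicate 3 at 1 week. The member median over time was 0.22 within slide 2. The fits within slides used fewer arrays, and the cause of the other shifts was not tested.

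Signs turned only in values past no threshold. At 6 weeks within slide 2 these were Pf4 -0.13, Ppbp -0.03, Vwf 0.04, Mmrn1 0.02, Selp 0.06, Gas6 0.14, Pdgfb 0.04, Vamp8 -0.18, Bloc1s6 -0.15, Vamp7 -0.21 and Itgb3 0.00. With array weights they were Vwf 0.00, Mmrn1 0.04, Bloc1s6 -0.05 and Itgb3 0.04, and Pf4 ran from -0.06 to 0.50 on leaving out 1 array. In the interaction, within slide 1 Mmrn1 was -0.06 and Selp -0.20, and Selp was -0.03 with normexp and -0.09 in the authors' deposited table. Leaving out 1 array gave Selp -0.05 to 0.07 and Nbeal2 -0.09 to 0.26. Over time Rab27b was -0.06 within slide 2.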
